A study of Mus musculus with 72 samples.

Results

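Livers that lacked a working clock in their hepatocytes (LKO) were compared between germ-free (GF) mice and specific-pathogen-free (SPF) mice at ZT6, in the light phase. Every library labelled LKO and ZT6 was taken, which gave 3 GF and 3 SPF libraries of the 72 libraries sequenced. Poly(A) RNA of whole liver was sequenced from SPF WT, GF WT, SPF LKO and GF LKO mice at 6 times of day, where ZT0 is lights on. All mice were adult males on the C57BL/6 strain. WT mice were Bmal1 fl/fl, so both genotypes carried the floxed allele, and LKO mice carried Albumin-Cre as well. The Albumin promoter drives Cre in hepatocytes, so that other cells of the liver keep Bmal1. GF mice held no microbes and SPF mice held a conventional gut community free of listed pathogens. The comparison asks which liver transcripts depend on microbes once the hepatocyte clock is gone. The labels number the 3 samples of a group without naming the animals, so p-values measure the spread between these samples.

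BMAL1 pairs with CLOCK or NPAS2 to switch on clock repressors, nuclear receptors and output genes that give liver transcription its daily course. The liver also clears drugs, steroids and microbial products that reach it through the portal vein, with cytochromes P450 for oxidation, transferases for conjugation and carriers for export. The receptors PXR and CAR drive many of these genes when bound by foreign compounds, bile acids or bacterial metabolites, and GF mice are known for a changed bile acid pool and a changed metabolism of sterols.

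The 6 libraries held between 18160529 and 20569902 counts, and the GF libraries (18160529 to 18871665) were all shallower than the SPF libraries (20002010 to 20569902). Values are CPM, counts scaled to a library total of 1000000 counts. Hepatocyte markers were abundant in every library, with a summed level of 59690 to 70110 CPM in GF and 58490 to 65540 CPM in SPF livers. Arntl, which encodes BMAL1, stood at 9.65 to 12.7 CPM in GF LKO and at 9.65 to 11.5 CPM in SPF LKO. Its count covers the whole gene, including exons outside the deleted part, so it does not check the deletion. Npas2, which BMAL1-driven repressors hold down in normal liver, stood at 21.4 to 31.7 CPM in all 6 LKO libraries and at 0.0483 to 0.364 CPM in the 6 WT libraries of ZT6. On the 500 most variable genes, the first principal component of the 6 libraries carried 54.9% of the variance, and 93.7% of that component lay between GF and SPF.

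One library outside the comparison touched it, because the 12 libraries of ZT6 shared the estimate of the spread. The library labelled GF WT replicate 3 had 6137 CPM of Cyp3a11 where the other GF WT libraries had 753.1 and 584.5 CPM. It had 6.17 CPM of Mt1 beside 105.7 and 109.7 CPM, and 8.24 CPM of Arntl beside 1.64 and 2.42 CPM. Each main count below is therefore also given for a fit on the 6 LKO libraries alone. At other times of day, the libraries labelled SPF LKO ZT14 replicate 2 and SPF LKO ZT18 replicate 1 went against their genotype label, with 0.221 and 1.83 CPM of Npas2.

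The livers of GF LKO mice had 42 genes that differed from SPF LKO livers, of 13609 tested (0.309%, edgeR quasi-likelihood test, Benjamini-Hochberg adjusted p under 0.05). Of these, 20 were higher (0.147%) and 22 lower (0.162%) in GF livers, and 21 differed at least 2-fold. Drug-metabolizing Cyp3a genes, a glucuronosyltransferase and the hepatokine gene Inhbe fell in GF livers. The estrogen sulfotransferase gene Sult1e1, the tryptophan pathway gene Acmsd, the acetyl-CoA genes Acss2 and Acat2 and 4 ribosomal protein genes rose. The median log2 fold change (GF minus SPF) over all genes was -0.00682. The 3 GF values lay wholly above or below the 3 SPF values for 3743 genes (27.5%). An unadjusted p under 0.05 was reached by 2378 of the 13609 genes, and DESeq2 called 547 genes. The counts of either kind given for lists below are to be read beside these totals. Fitted on the 6 LKO libraries alone, 463 of 13167 genes differed (3.52%), with 261 higher (1.98%) and 202 lower (1.53%), and all 42 genes were among them. Without the library labelled GF WT replicate 3, the count was 385 of 13944 genes (2.76%), with 210 higher (1.51%) and 175 lower (1.26%). It fell to 1 gene (Acmsd) without SPF LKO replicate 1 or 3 or GF LKO replicate 2 or 3, to 2 without SPF WT replicate 2, to 4 without SPF LKO replicate 2 and to 12 without GF WT replicate 1. It was 85 without SPF WT replicate 3 and 130 without GF LKO replicate 1. With the replicate number as a block, 2 genes passed.

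**Figure D1:**
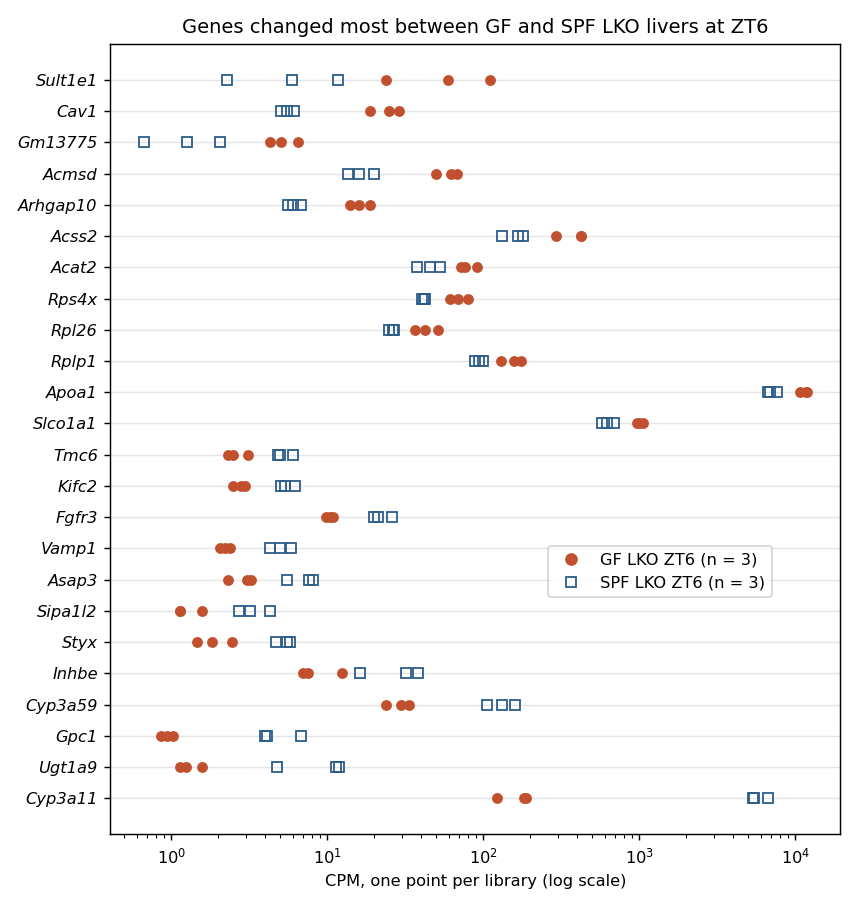
CPM on a log scale of the 12 genes with the largest increases and the 12 with the largest decreases that met the naming rule, with 1 point per library for the 3 GF LKO and 3 SPF LKO livers of ZT6. No GF point overlaps the SPF points of its gene, and Cyp3a11 spans the widest gap, from 123.4 to 188.8 CPM in GF to 5389 to 6678 CPM in SPF livers.

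Cyp3a11 encodes the main drug-oxidizing P450 of mouse liver and is a classical target of PXR. It lies at chr5:145854426-145879964 on the minus strand (mm10). Its level was 188.8, 183.0 and 123.4 CPM in the GF livers and 6678, 5389 and 5431 CPM in the SPF livers. The mean was 35.4-fold lower in GF livers, and no library came near those of the other group. The log2 fold change was -5.14 (SE 0.754, adjusted p = 0.0318). With the 6 libraries alone the adjusted p was 3.03e-06.

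Relatives in the same cluster on chromosome 5 also stood lower in GF livers. Cyp3a59 stood at 33.2, 29.6 and 23.9 CPM in GF livers and at 158.9, 105.0 and 132.1 CPM in SPF livers, a 4.57-fold lower mean (log2 fold change -2.19, SE 0.333, adjusted p = 0.0318). Cyp3a25 stood at 465.2, 509.5 and 407.6 CPM in GF livers and at 1049, 823.0 and 905.5 CPM in SPF livers. These groups did not overlap and the GF mean was 2.01-fold lower, but Cyp3a25 reached an adjusted p of 0.0699 over 12 libraries and 0.00983 over the 6 LKO libraries alone. Cyp3a13, which lies apart from that cluster on the chromosome, had overlapping groups (162.5 to 169.7 CPM in GF, 134.5 to 173.7 CPM in SPF). Reads that map to several places or genes were not counted, so levels of these close copies are uncertain to the extent that they share sequence.

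The promoter stretches of the 3 Cyp3a genes that were lower are shown because PXR and CAR bind pairs of the sequence AGGTCA or near variants of it. They come from the RefSeq promoter table (build GRCm38.p6), written 5′ to 3′ on the strand of the gene, and capitals mark the motif AGGTCA, its reverse complement TGACCT, or, in Cyp3a11, TGAACT.
Cyp3a11 (chr5:145879951-145880056, minus strand): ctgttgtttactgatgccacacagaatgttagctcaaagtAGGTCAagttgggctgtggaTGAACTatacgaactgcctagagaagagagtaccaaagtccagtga
Cyp3a59 (chr5:146079041-146079147, plus strand): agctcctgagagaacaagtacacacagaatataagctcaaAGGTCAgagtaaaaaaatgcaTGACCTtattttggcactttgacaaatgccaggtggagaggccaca
Cyp3a25 (chr5:146009728-146009834, minus strand): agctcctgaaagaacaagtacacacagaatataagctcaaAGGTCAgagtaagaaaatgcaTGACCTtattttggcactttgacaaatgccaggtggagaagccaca
The first marked base lay 162 bases before the RefSeq start of Cyp3a11, a start inside the gene span given above, and 177 bases before those of Cyp3a59 and Cyp3a25. The stretches of Cyp3a59 and Cyp3a25 were identical at 104 of 107 bases. Within 250 bases before the RefSeq start, 14% of 32851 promoters held AGGTCA on either strand, against 11 of the 42 promoters (26.2%) of the listed xenobiotic receptors and P450 genes. AGGTCA followed by TGACCT at up to 20 bases was found in 0.0791% of all promoters and in 3 of the 42 listed promoters. Those promoters belong to 2 of the 39 listed genes, Cyp3a59 and Cyp3a25, and that of Cyp3a11 lacks this pair. Both genes were shown because they were lower and are near copies here, so this share is no test of the list. The 2 marked sites lay 14 bases apart in Cyp3a11 and 15 in Cyp3a59 and Cyp3a25. Whether PXR or CAR bind sites so placed was not tested. TGAACT was marked in Cyp3a11 alone, and its share over all promoters was not counted. A match describes the letters and shows no binding.

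Among the 37 tested xenobiotic receptors and P450 genes, only Cyp3a11 and Cyp3a59 passed the test with 12 libraries, and the median log2 fold change was -0.14. Out of 36 tested on the 6 libraries alone, 6 fell (1.53% of all genes) and 3 rose (1.98% of all genes). The genes in this and the next sentences were named after their values were seen. Cyp2b10, a CAR target, stood at 30.5, 31.4 and 37.5 CPM in GF livers and at 90.3, 102.6 and 81.7 CPM in SPF livers, 2.76-fold lower in the mean (adjusted p = 0.117 over 12 libraries and 0.000757 over 6). Cyp2c40, a P450 gene more active in female liver, went the other way. It stood at 43.6, 20.2 and 74.3 CPM in GF livers and at 1.11, 1.52 and 5.04 CPM in SPF livers, an 18-fold higher mean (adjusted p = 0.0716 over 12 libraries and 0.0123 over 6). Its neighbour Cyp2c69 followed, with 6.71 to 34.2 CPM against 0.177 to 2.17 CPM (adjusted p = 0.019 over 6 libraries). Nr1i2, which encodes PXR, had a log2 fold change of -0.11 and Nr1i3, which encodes CAR, one of -0.48, and neither passed a test.

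Of 60 tested genes for conjugation, hydrolysis and export, Sult1e1 rose and Ugt1a9 and Ephx1 fell, and the median log2 fold change was -0.16. Sult1e1, which sulfates and so inactivates estrogens, stood at 59.8, 23.9 and 109.9 CPM in GF livers and at 5.94, 11.7 and 2.26 CPM in SPF livers. The GF mean was 9.74-fold higher (log2 fold change 3.28, SE 0.619, adjusted p = 0.0492), with a wide spread in both groups. Ugt1a9, which adds glucuronic acid to phenolic compounds, stood at 1.24, 1.14 and 1.56 CPM in GF livers and at 11.3, 4.79 and 11.8 CPM in SPF livers. It was 7.08-fold lower in GF livers (adjusted p = 0.0476). Its last exons belong to all genes of the Ugt1a cluster, and reads there were not counted for any of them. Ephx1, the microsomal epoxide hydrolase, stood at 338.3, 262.9 and 303.3 CPM against 427.1, 575.4 and 554.7 CPM (adjusted p = 0.0464). On the 6 libraries alone, 7 of 58 genes of the list fell, among them the carboxylesterase genes Ces1d, Ces2a and Ces2e, and 3 rose. Over all genes, 1.53% fell and 1.98% rose in this fit.

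Of 17 tested genes of bile acid synthesis, none passed the edgeR test with 12 libraries (median log2 fold change 0.03). Before adjustment 4 had a p under 0.05 (2378 of all 13609 genes), and DESeq2 called 2 (547 over all genes). Cyp2c70, which makes the muricholic acids of the mouse, rose on the 6 libraries alone (1864 to 2597 CPM in GF, 1207 to 1487 CPM in SPF, adjusted p = 0.0221). Cyp7a1, the rate-limiting enzyme of the classical pathway, stood at 125.1, 125.8 and 251.7 CPM in GF livers and at 143.2, 129.5 and 205.4 CPM in SPF livers. These groups overlapped. Of 19 genes for bile acid sensing and transport, Slco1a1 rose. This carrier of bile acids and other organic anions stood at 998.9, 969.1 and 1058 CPM in GF livers and at 574.6, 691.5 and 623.9 CPM in SPF livers, 1.6-fold higher (log2 fold change 0.68, SE 0.110, adjusted p = 0.0356).

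Acmsd had the smallest adjusted p of all genes. Its enzyme steers an intermediate of tryptophan breakdown towards full oxidation and away from NAD synthesis. It lies at chr1:127729413-127767978 on the plus strand (mm10). It stood at 61.7, 49.9 and 68.1 CPM in GF livers and at 16, 19.9 and 13.6 CPM in SPF livers, 3.63-fold higher (log2 fold change 1.86, SE 0.176, adjusted p = 0.00126). The lowest GF library was above every SPF library by more than the range of the SPF libraries. It was the gene that passed in each of 12 fits that left out 1 library of ZT6. The wider list of amino acid catabolism and the urea cycle had no gene past the edgeR test with 12 libraries among 51 tested. Its median log2 fold change was 0.29. An unadjusted p under 0.05 was reached by 25 members (2378 of all 13609 genes), and DESeq2 called 16 (547 over all genes). In 26 of the 51 the 3 GF values were all above the 3 SPF values, where this held for 14.6% of all genes. Out of 49 tested on the 6 libraries alone, 12 rose (1.98% of all genes) and 2 fell (1.53% of all genes). Examples named after their values were seen are Bhmt, which remethylates homocysteine (1908 to 1966 CPM in GF, 821.2 to 1218 CPM in SPF, adjusted p = 0.0178), and Got1, the cytosolic aspartate aminotransferase (440.7 to 593.0 CPM against 233.2 to 301.1 CPM, adjusted p = 0.0178). Csad, which makes the taurine precursor hypotaurine, fell on the 6 libraries alone (adjusted p = 0.0467), from 125.0, 253.9 and 281.4 CPM in SPF livers to 103.4, 116.7 and 90.2 CPM in GF livers.

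**Figure D2:**
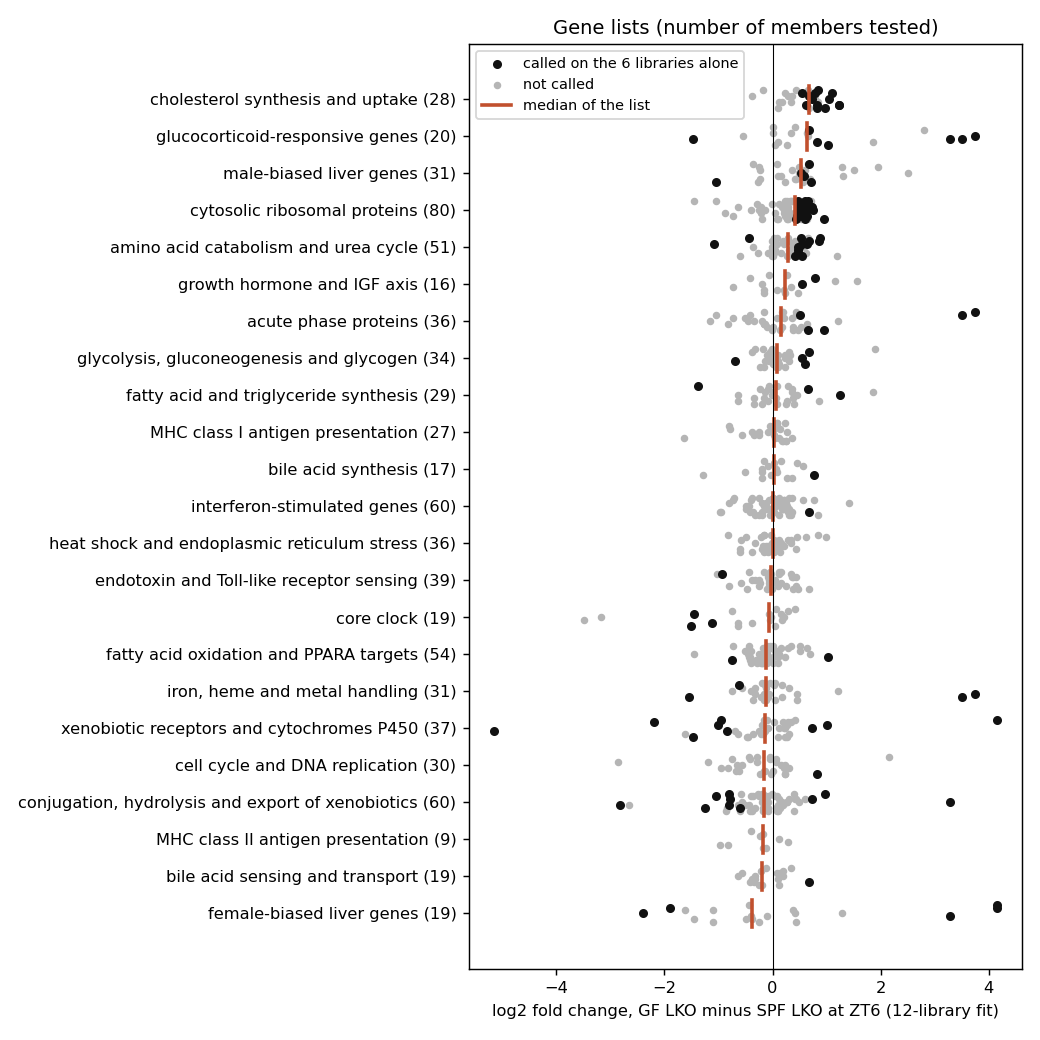
Log2 fold change (GF LKO minus SPF LKO at ZT6) of the tested members of each gene list, with 1 point per gene and the median of the list, and the number of tested members after its name. The list of cholesterol synthesis and uptake has the highest median, 0.678, and that of female-biased liver genes the lowest, -0.379.

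Genes of cholesterol synthesis stood higher in GF livers as a list. Of 28 tested members, 26 had a positive fold change, the median log2 fold change was 0.68, and 22 had all GF values above all SPF values, as did 14.6% of all genes. Acat2, which makes the acetoacetyl-CoA at the start of the pathway, was the member that passed with 12 libraries. It stood at 76.4, 91.7 and 72.1 CPM in GF livers and at 37.9, 45.7 and 52.4 CPM in SPF livers, 1.77-fold higher (log2 fold change 0.82, SE 0.140, adjusted p = 0.0356). On the 6 libraries alone, 13 of the 28 rose (1.98% of all genes) and none fell (1.53% of all genes). Those that rose were Acat2, Hmgcs1, Mvk, Pmvk, Idi1, Fdps, Fdft1, Cyp51, Msmo1, Nsdhl, Ebp, Sc5d and Stard4. Cyp51, which removes a methyl group from lanosterol, stood at 347.7, 429.4 and 289.7 CPM in GF livers and at 120.1, 158.2 and 179.4 CPM in SPF livers (2.33-fold higher, adjusted p = 0.0716 over 12 libraries and 0.0131 over 6). Tmem97, a sterol-regulated membrane protein gene outside the list, rose (62.1 to 74.02 CPM in GF, 36.2 to 47.9 CPM in SPF, adjusted p = 0.041).

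The promoter of Hmgcs1 is shown because SREBP2, the sterol-regulated activator of this pathway, binds sequences of the form TCACNCCAC. It was the promoter that held it, on either strand, among those of 21 listed cholesterol genes with an entry, and 1.05% of all promoters held it. Capitals mark the match (RefSeq, build GRCm38.p6), whose first base lay 137 bases before the RefSeq start.
Hmgcs1 (chr13:119690174-119690262, plus strand): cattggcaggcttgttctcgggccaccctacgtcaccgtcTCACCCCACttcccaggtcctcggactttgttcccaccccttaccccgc
Hmgcs1 stood at 647.1, 741.0 and 499.0 CPM in GF livers and at 296.7, 356.5 and 409.6 CPM in SPF livers (adjusted p = 0.372 over 12 libraries and 0.0306 over 6).

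Genes of fatty acid synthesis did not move together. Acss2, which turns acetate into acetyl-CoA, was the member among 29 tested that passed with 12 libraries. It stood at 420.3, 426.0 and 290.8 CPM in GF livers and at 131.4, 167.5 and 179.3 CPM in SPF livers, 2.38-fold higher (log2 fold change 1.25, SE 0.234, adjusted p = 0.0492). Srebf1, the activator gene of fatty acid synthesis, stood at 78.7, 49.4 and 53.6 CPM in GF livers and at 164.0, 124.1 and 182.9 CPM in SPF livers (2.59-fold lower, adjusted p = 0.0123 over the 6 libraries alone and 0.133 over 12). The list's median was 0.07. None of 54 genes of fatty acid oxidation and PPARA targets passed with edgeR and 12 libraries (median -0.11). Before adjustment 9 had a p under 0.05 (2378 of all 13609 genes), and DESeq2 called 2 (547 over all genes). The study singled out genes of this group for the comparison of LKO with WT mice, which is a different contrast. Between GF and SPF LKO livers these genes did not pass either. Cpt1a had a log2 fold change of 0.00, Ppara one of -0.13, Fabp1 one of 0.15 and Aldh3a2 one of -0.42. Apoa1, the main protein of HDL, rose from 6893, 7678 and 6683 CPM in SPF livers to 10740, 11720 and 11950 CPM in GF livers (log2 fold change 0.69, SE 0.121, adjusted p = 0.0362).

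No gene of glycolysis, gluconeogenesis and glycogen metabolism passed with edgeR and 12 libraries out of 34. Before adjustment 4 had a p under 0.05 (2378 of all 13609 genes), and DESeq2 called 1 (547 over all genes). Pck1, the gluconeogenic carboxykinase of the cytosol, stood at 2770, 2407 and 2527 CPM in GF livers and at 1387, 1715 and 1724 CPM in SPF livers. Every GF library was above every SPF library, the mean was 1.6-fold higher, and the adjusted p was 0.353 over 12 libraries and 0.022 over 6. Pck2, G6pc and Fbp1, with log2 fold changes of -0.32, 0.22 and 0.10, did not pass a test. Foxo1 (log2 fold change 0.55), which activates gluconeogenic genes, rose on the 6 libraries alone, and Pklr, the liver pyruvate kinase gene, fell (-0.70).

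None of 19 core clock genes passed the edgeR test with 12 libraries. Before adjustment 8 had a p under 0.05 (2378 of all 13609 genes), and DESeq2 called 4 (547 over all genes). The 3 GF values were all below the SPF values in 8 of the 19 and all above in 1, against 12.9% and 14.6% of all genes. Dbp, Nr1d1 and Per3 fell on the 6 libraries alone. Dbp, an output factor of the clock, stood at 3.02, 2.81 and 2.64 CPM in GF livers and at 11.9, 4.92 and 7.31 CPM in SPF livers (adjusted p = 0.0304). Nr1d1, which encodes the repressor REV-ERB alpha, stood at 3.499, 2.34 and 3.07 CPM against 7.67, 5.71 and 10.8 CPM (adjusted p = 0.022). These levels lay far under those of the SPF WT livers at ZT6, which had 44.5 to 67.2 CPM of Dbp and 56.9 to 71.7 CPM of Nr1d1. Per2 and Cry1, with log2 fold changes of -0.65 and 0.29, did not pass.

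Among the other genes that fell, Inhbe, which encodes a subunit of the hepatokine activin E, stood at 12.4, 7.02 and 7.49 CPM in GF livers and at 38.3, 16.1 and 31.8 CPM in SPF livers (3.21-fold lower, adjusted p = 0.041). Gpc1, a cell-surface heparan sulfate proteoglycan gene, stood at 1.02, 0.936 and 0.862 CPM against 6.78, 4.14 and 4.0 CPM (5.29-fold lower, adjusted p = 0.0356). The growth factor receptor gene Fgfr3 stood at 10.9, 9.88 and 10.4 CPM against 25.8, 21.1 and 19.9 CPM (adjusted p = 0.0318). None of these 3 genes had overlapping groups. Styx, Sipa1l2, Asap3, Vamp1, Kifc2 and Tmc6 completed the 12 largest decreases and stood at 1.13 to 3.23 CPM in GF livers, with log2 fold changes of -1.477 to -1.001. Among the increases, Cav1, which encodes caveolin-1, stood at 18.9, 24.97 and 28.99 CPM in GF livers and at 6.12, 5.05 and 5.52 CPM in SPF livers, 4.36-fold higher (adjusted p = 0.0362). Arhgap10, a GTPase-activating protein gene, stood at 14.1 to 18.7 CPM against 5.62 to 6.74 CPM (log2 fold change 1.40), and the noncoding RNA gene Gm13775 had a log2 fold change of 1.98.

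Immune lists are to be read beside all genes, of which 0.309% passed with 12 libraries. Of 60 interferon-stimulated genes, 27 genes of MHC class I, 9 of MHC class II and 39 of endotoxin sensing, none passed the edgeR test with 12 libraries. The members at an unadjusted p under 0.05 numbered 4, 4, 0 and 7, beside 2378 of all 13609 genes. DESeq2 called 1, which was of endotoxin sensing, beside 547 over all genes. On the 6 libraries alone Usp18 rose and Tlr5, the flagellin receptor gene, fell. Of 36 acute phase genes Serpina1a, which encodes alpha-1 antitrypsin, rose with 12 libraries (1217 to 1315 CPM in GF, 736.6 to 862.1 CPM in SPF, adjusted p = 0.041). An unadjusted p under 0.05 was reached by 10 of the 36, and DESeq2 called 6. On the 6 libraries alone, 5 of 35 acute phase genes rose (1.98% of all genes) and 0 fell (1.53% of all genes). Immunoglobulin genes, named after their values were seen, went in opposite directions on the 6 libraries alone. Igha, the IgA heavy chain gene, had 0, 1 and 1 counts in GF livers and 98, 25 and 36 counts in SPF livers (adjusted p = 0.0142). Ighm, the IgM heavy chain gene, stood at 16.9, 15.97 and 9.54 CPM in GF livers and at 3.501, 3.83 and 3.31 CPM in SPF livers (3.99-fold higher, adjusted p = 0.00586). In bulk liver, fewer cells of a type and less RNA per cell cannot be told apart. The 9 markers of B and plasma cells summed to 21.1 to 34.3 CPM in GF and 11.7 to 16.7 CPM in SPF livers, none was at 0 in all 6 libraries, and none of 8 tested passed with 12 libraries. That sum includes Ighm and Igkc, and its part in the immunoglobulin results was not tested. The 8 pancreas markers summed to 107.6 to 117.0 CPM and 74.9 to 96.8 CPM, almost all of it Cela1, and Cela3b, Prss2, Cpa1, Pnlip, Ctrb1 and Amy2a5 were at 0 in all 6 libraries. The summed markers of Kupffer cells (312.9 to 393.9 CPM in GF, 307.7 to 363.2 CPM in SPF), T cells, neutrophils, endothelium, stellate cells, cholangiocytes, erythroid cells, and gallbladder and intestine overlapped between the groups.

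Mt1, a metallothionein gene whose product binds zinc and copper, stood at 124.7, 109.8 and 160.6 CPM in GF livers and at 23, 5.23 and 6.39 CPM in SPF livers, 11.4-fold higher (adjusted p = 0.0123 over 6 libraries and 0.0713 over 12). Of 20 glucocorticoid-responsive genes, 18 had a positive fold change and the median was 0.64, and Sult1e1 passed with 12 libraries. On the 6 alone, 6 of 19 rose (1.98% of all genes) and 1 fell (1.53% of all genes). Those that rose were Cdkn1a, Mt1, Mt2, Pck1, Angptl4 and Sult1e1, and Cyp2b10 fell. None of 36 heat shock and endoplasmic reticulum stress genes passed with edgeR in either fit or with DESeq2, and 5 had an unadjusted p under 0.05. Iron and heme genes (31 tested) and cell cycle genes (30 tested) had none past the edgeR test with 12 libraries and medians of -0.12 and -0.15, with 10 and 5 members at an unadjusted p under 0.05 and 5 and 2 called by DESeq2.

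Growth hormone patterns the liver by sex, and both sex-biased lists were looked at. Of 31 male-biased genes, Slco1a1 passed with 12 libraries and the median log2 fold change was 0.53. Hsd3b5, Mup21, C8b and Slco1a1 rose and Sult5a1 fell on the 6 libraries alone. Of 19 female-biased genes, Sult1e1 rose and Gpc1 fell with 12 libraries, and the median was -0.38. On the 6 libraries alone Cyp2c40, Cyp2c69 and Sult1e1 rose and Ntrk2 and Gpc1 fell, so that members of this list went both ways. Over all genes, 1.98% rose and 1.53% fell in this fit. The male-biased list had 4 and 1 of 31, and the female-biased list 3 and 2 of 17. None of 16 genes of the growth hormone and IGF axis passed with edgeR and 12 libraries or with DESeq2. An unadjusted p under 0.05 was reached by 5 of the 16 (2378 of all 13609 genes). Igfbp2, which encodes an IGF-binding protein, rose on the 6 alone (584.2 to 664.6 CPM in GF, 297.5 to 406.6 CPM in SPF, adjusted p = 0.0183).

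Genes of the cytosolic ribosome, a list drawn up after the values were seen, stood higher in GF livers. Of 80 tested, Rps4x, Rpl26, Rplp1 and Rps25 passed with 12 libraries, with log2 fold changes of 0.76, 0.73, 0.71 and 0.64. The median was 0.42, 44 had all GF values above all SPF values (14.6% of all genes), and on the 6 libraries alone 24 of 79 rose (1.98% of all genes) and none fell. The summed level of 83 such genes was 5359, 7004 and 6225 CPM in GF livers and 4597, 4364 and 4223 CPM in SPF livers. It was also higher in GF WT (5375 ± 104.5 CPM, SD, n = 3) than in SPF WT livers (4016 ± 407.7 CPM, SD, n = 3). These short transcripts have many processed copies in the genome, so reads they share with copies were not counted. The GF LKO libraries were also the shallower ones, and the part of depth in the shift was not tested.

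The same contrast at the other 5 times of day shares no library with ZT6. There, with 30 LKO libraries, 4851 of 12944 genes differed between GF and SPF livers (37.5%). Of the 42 genes of ZT6, 41 were tested there, and all 41 differed in the same direction. They make up 97.6% of the 42 genes and 0.845% of the 4851. Of all genes tested at ZT6 that were also tested there, 74% had the same sign and 33.5% were called with the same sign. Of the 463 genes called on the 6 libraries alone, 449 were tested at the other times, 445 had the same sign (99.1%) and 378 were called with it (84.2%). A test of the difference between ZT6 and the mean of the other times called 0 of 14234 genes with edgeR and 0 with DESeq2, and 868 had an unadjusted p under 0.05.

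**Figure D3:**
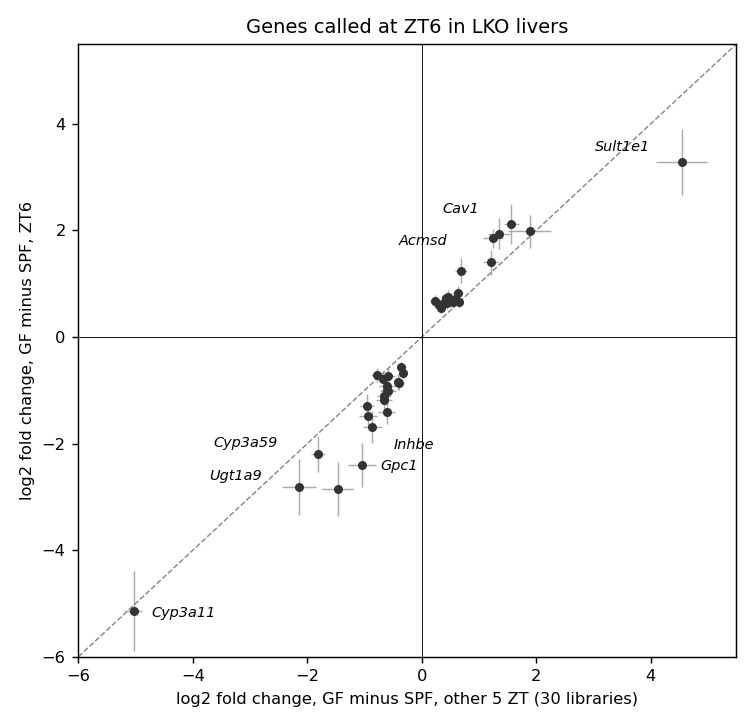
Log2 fold change (GF minus SPF, with SE) in LKO livers at ZT6 on the vertical axis and over the other 5 times on the horizontal axis, for the 41 genes called at ZT6 and tested at both. All points lie in the quadrants of equal sign, from -5.14 and -5.03 for Cyp3a11 to 3.28 and 4.54 for Sult1e1.

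Cyp3a11 had means of 129.4 to 279.1 CPM in GF LKO and of 5833 to 6579 CPM in SPF LKO livers over the 6 times, and at each of them the groups lay apart. Acmsd was higher in GF livers at ZT6 and without overlap at 4 of the other 5 times. At ZT14 its groups overlapped, with 44.4, 50.4 and 72.9 CPM in GF and 44.8, 70.8 and 45.3 CPM in SPF livers. The 70.8 CPM belongs to SPF LKO ZT14 replicate 2, which went against its genotype label. Without that library the groups still overlapped, at 44.4 CPM in GF and 44.8 CPM in SPF livers. Sult1e1, Cav1, Acat2 and Apoa1 were higher in GF livers without overlap at all 6 times, and Cyp3a59 lower. The effect on Slco1a1 was smaller at the other times, with a log2 fold change of 0.23 beside 0.68 at ZT6, and its groups did not overlap at 2 of the 5. The difference between these values had an adjusted p of 0.721. For Pck1 the log2 fold change was 0.67 at ZT6 and 0.67 over the other times, with GF means above SPF means at 4 of the 5.

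**Figure D4:**
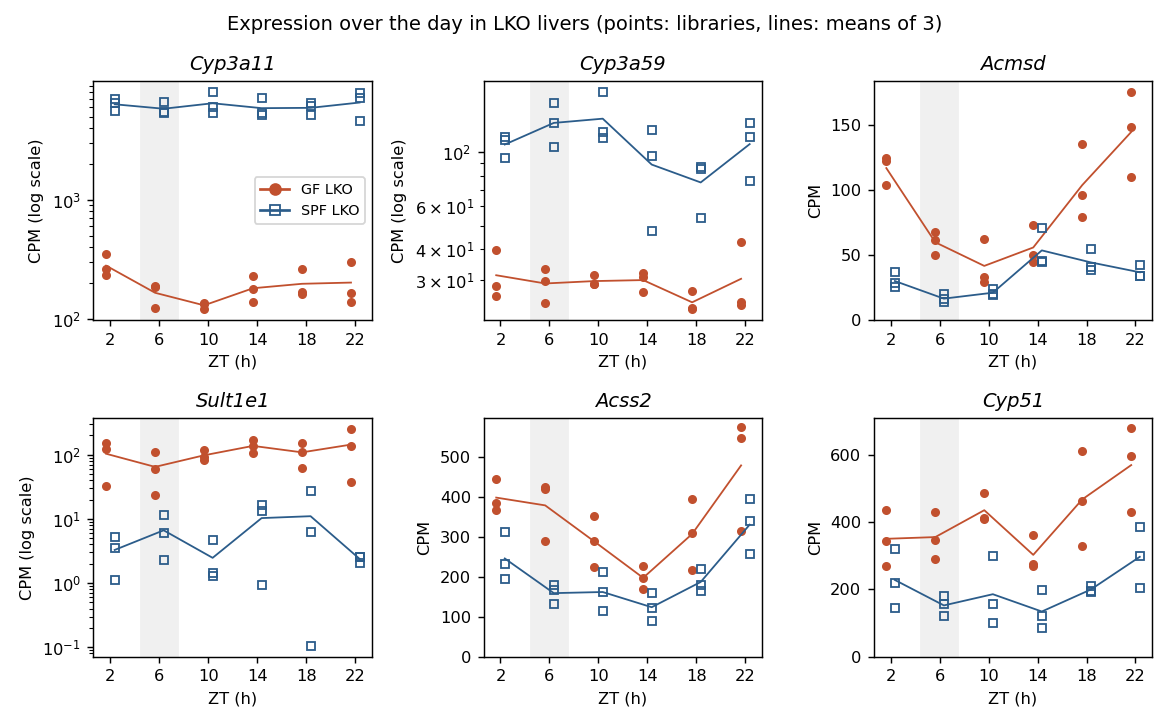
CPM of Cyp3a11, Cyp3a59, Acmsd, Sult1e1, Acss2 and Cyp51 against ZT in LKO livers, with 1 point per library, lines through the means of 3, ZT6 shaded and log axes for Cyp3a11, Cyp3a59 and Sult1e1. GF and SPF points of Cyp3a11 and Cyp3a59 stay apart at all 6 times, and those of Acmsd meet at ZT14.

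In livers with an intact clock (GF WT against SPF WT at ZT6), 356 of 13609 genes differed between GF and SPF mice in the same fit (2.62%), 209 higher (1.54%) and 147 lower (1.08%) in GF livers. This count rests on the 12-library fit. On the 6 WT libraries alone edgeR called 0 of 12867 genes, with 2553 at a p under 0.05 before adjustment, while DESeq2 called 1259 with 12 libraries. Leaving out 1 library gave 0 to 794 calls, with 0 without SPF WT replicate 2 or 3, GF WT replicate 2 or SPF LKO replicate 2, and 3 genes passed with the replicate block. Both contrasts rest on separate libraries but share the estimate of the spread. Of the 42 genes of LKO livers, 40 had the same sign in WT livers (95.2%, against 69.3% of all genes). These were 19 of the 20 higher ones and 21 of the 22 lower ones. In WT livers 14 of the 42 were called with the same sign (33.3%, against 2.51% of all genes), 11 of the 20 higher ones and 3 of the 22 lower ones. These counts include the library labelled GF WT replicate 3. In the edgeR fit without it, Cyp3a11 and Cyp3a59 were lower in GF WT livers (adjusted p = 0.000119 and 0.00736). Of the other large decreases, Ugt1a9, Gpc1 and Inhbe did not pass in WT livers there (adjusted p = 0.474, 0.521 and 0.879). The test of the difference between the 2 effects called 0 of 13609 genes with edgeR. There were 774 at a p under 0.05 before adjustment, and the 7 called by DESeq2 were Gpc1, Nat8, Inhbe, Tsc22d1, Ift57, Tedc2 and Aqp4. Inhbe, for example, stood at 35.1, 40.4 and 59.1 CPM in GF WT and at 33.9, 38.8 and 33.7 CPM in SPF WT livers, where the groups overlapped. Tsc22d1, a leucine zipper factor gene, rose in GF WT livers (123.9 to 204.0 CPM against 44.4 to 64.9 CPM, adjusted p = 0.0298), while its LKO groups overlapped (129.8 to 180.1 CPM against 133.4 to 200.8 CPM).

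The library labelled GF WT replicate 3 weighs on this difference. With it, Cyp3a11 had a difference (LKO effect minus WT effect) of -4.24 on the log2 scale (SE 0.932, adjusted p = 0.761). Without it, Cyp3a11 was the gene called, with a log2 fold change of -5.14 in LKO and -2.80 in WT livers and a difference of -2.34 (SE 0.257, adjusted p = 0.00771). The library was singled out partly by its own Cyp3a11 level, so leaving it out narrowed the spread of this gene beforehand. That adjusted p therefore cannot decide whether the genotypes differ. The SPF levels were 5389 to 6678 CPM in LKO and 4270 to 5180 CPM in WT livers. Acmsd rose in both genotypes, by a log2 fold change of 1.86 in LKO and 1.03 in WT livers, and the difference had an adjusted p of 0.844.

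**Figure D5:**
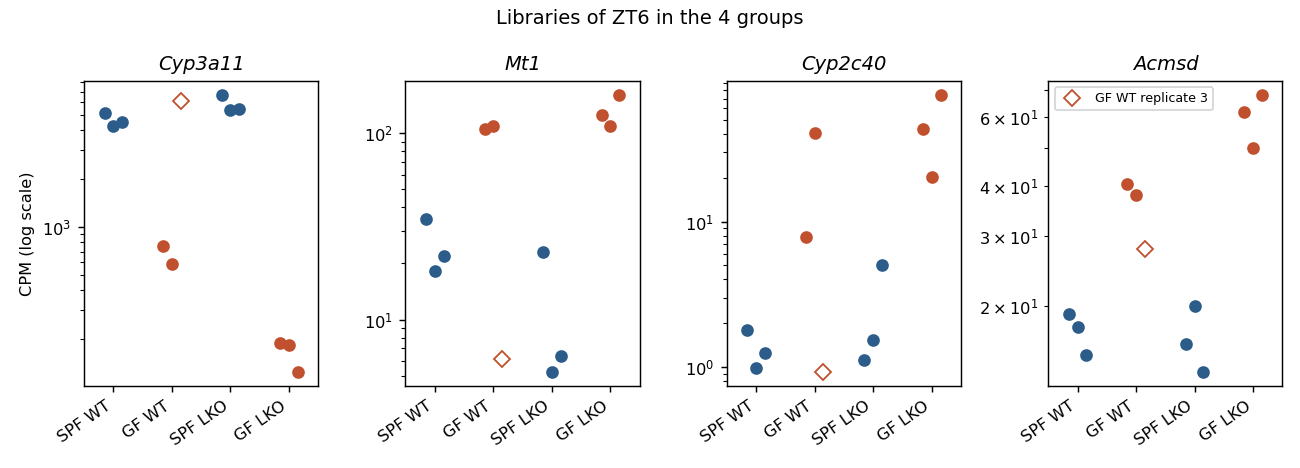
CPM on a log scale of Cyp3a11, Mt1, Cyp2c40 and Acmsd in the 12 libraries of ZT6, with 1 point per library and the library labelled GF WT replicate 3 as an open diamond. That library lies with the SPF libraries for Cyp3a11 at 6137 CPM, and the GF LKO points lie apart from the SPF LKO points in each panel.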

How the data were processed

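Whole-liver poly(A) RNA was sequenced in 72 libraries with single-end reads from a stranded kit. Per the labels and the study's methods, the authors aligned reads with STAR 2.6.1b to mm10 and made the deposited counts per gene with featureCounts 2.0.0 and a GRCm38 Ensembl annotation. The file header shows default settings, so strand was not used, and reads mapping to several places or overlapping several genes were left out. Reads of overlapping or antisense genes therefore cannot be assigned by strand. The table holds raw counts for 55573 genes, 22224 of them without a count in any library, and 0 columns were left unused. Libraries held 17369927 to 22076113 counts, which sets the counting error only. Gene symbols and positions came from the GENCODE annotation of GRCm38 for 55480 genes.

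Groups came from the labels. The 12 libraries of ZT6 were fitted with edgeR 4.0.16 (R 4.3.3; filterByExpr, TMM, glmQLFit, glmQLFTest), with 4 group means, and Benjamini-Hochberg adjustment over all genes tested. The contrasts were GF LKO against SPF LKO, GF WT against SPF WT and their difference. The other 5 times used 30 LKO libraries with ZT as a term, and the difference between times used 36 LKO libraries. Tables and plots were made with python 3.11.15, pandas 2.3.3 and matplotlib 3.10.9.

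The comparison, the gene lists and the naming rule were chosen with earlier results of these data known, and some lists came from an earlier analysis of the same data. Named genes were the 12 largest increases and 12 largest decreases among genes past the threshold without overlap of groups and with a log2 CPM averaging 1 or more, up to 4 called members per list (or the 2 most abundant), 6 clock genes, the smallest p-values of the differences, and genes the study singles out. All other genes, including those given only for the fit on the 6 libraries alone, were picked with their values in view.

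Alternatives were DESeq2 1.42.0, DESeq2's size factors in edgeR, no filter on low counts, a replicate block, the spread shared by all 72 libraries, the 6 libraries of a contrast alone, and each library left out. Tested on simulated data with 100 genes changed 2-fold and 100 changed 4-fold among 13381, the LKO contrast recovered 71 and 95 and called 9 others with edgeR, and 81 and 96 with 33 others with DESeq2. The difference between genotypes recovered 46 and 86.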

Additional observations from a re-analysis of the deposited data

Results flagged for a closer look

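The GF effect on Cyp3a11 at ZT6 was called different between genotypes in the fit without the library labelled GF WT replicate 3. Cyp3a11, the main drug-oxidizing P450 gene, had a log2 fold change (GF minus SPF) of -5.14 in LKO and -2.80 in WT livers there, a difference of -2.34 (SE 0.257, edgeR quasi-likelihood test, adjusted p = 0.00771). The GF LKO libraries had 188.8, 183.0 and 123.4 CPM, and the 2 remaining GF WT libraries had 753.1 and 584.5 CPM. With all 12 libraries the adjusted p was 0.761, and the library left out had 6137 CPM. That library was singled out partly by this level, so leaving it out narrowed the spread of Cyp3a11 beforehand. The adjusted p without it therefore cannot decide whether the genotypes differ. With the spread shared by all 72 libraries, the difference was called for Cyp3a11 (adjusted p = 0.00238) and for Tsku (adjusted p = 0.0332).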

How the results depend on the processing

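All 42 genes kept their direction in every alternative, but the count depended on the fit. For GF LKO against SPF LKO, DESeq2 called 547 genes, no filter 874, the spread of all 72 libraries 214, and the 6 libraries alone 463, against 42. Leaving out 1 library gave 1 to 385 genes. It was 385 without GF WT replicate 3, 130 without GF LKO replicate 1, 85 without SPF WT replicate 3, 12 without GF WT replicate 1, 4 without SPF LKO replicate 2, 2 without SPF WT replicate 2, and 1, Acmsd, without SPF LKO replicate 1 or 3 or GF LKO replicate 2 or 3. Of the 42, DESeq2 still called 41, and Cyp3a11 had no adjusted p there. For GF WT against SPF WT (356 genes) the counts were 1259, 1730, 1219 and 0, and 0 to 794 with 1 library left out. For the difference between genotypes (0 genes) they were 7 with DESeq2, 319 without a filter, 2 with 72 libraries and 0 to 1 with 1 library left out. For the difference between times (0 genes), no filter gave 140 and leaving out 1 library 0 to 0. Listed genes called numbered 73 with DESeq2, 11 with DESeq2's size factors in edgeR, 78 on the 6 libraries alone and 0 to 57 with 1 library left out. Over the other 5 times, 4717 genes were called without the 2 libraries that went against their labels, beside 4851. Signs turned for log2 fold changes near 0, none of them called. For Cpt1a they were -0.0248 without a filter, -0.0083 with the replicate block, -0.0063 with 72 libraries, -0.00047 on 6 libraries and -0.0457 to 0.0797 with 1 library left out, and for Hspa5 -0.0189 without a filter and -0.035 to 0.0531. With 1 library left out the ranges were -0.0952 to 0.208 for Fth1, -0.0807 to 0.146 for Arntl, -0.215 to 0.0685 for Npas2, -0.196 to 0.138 for Tsc22d1, -0.0301 to 0.424 for G6pc, -0.384 to 0.0159 for Cd74 and -0.251 to 0.434 for H2-Aa. The cause of these changes was not tested.

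Replicate numbers did not pair the libraries. The correlation of same-numbered libraries' deviations from their group means was -0.313 to 0.218 over 18 pairs, beside -0.211 to 0.31 for other numbers. With the replicate block 2 genes were called in LKO livers (Acmsd and Ugt1a9), 3 in WT livers, 0 for either difference, 4269 over the other times and 1 listed gene.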

Other observations

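Some further genes, named after their values were seen, also stood apart on the 6 LKO libraries of ZT6 alone (edgeR quasi-likelihood test, Benjamini-Hochberg adjusted p). Ntrk2, which encodes the neurotrophin receptor TRKB and belongs to the female-biased list, stood at 10.1, 13.9 and 22.4 CPM in GF livers and at 57.8, 71.03 and 43.5 CPM in SPF livers, 3.72-fold lower (adjusted p = 0.0123). Id3, an inhibitor of DNA binding that answers BMP signals, stood at 15.9, 13.6 and 15.8 CPM against 52.5, 35.01 and 54.8 CPM (adjusted p = 0.00426). Ddit4, a stress-induced inhibitor of mTORC1, stood at 25.3, 58.7 and 39.1 CPM against 11.6, 13.6 and 11 CPM (3.4-fold higher, adjusted p = 0.0131). The groups of these genes did not overlap. Over 12 libraries their adjusted p values were 0.0659, 0.221 and 0.127. In LKO livers at the other 5 times, the log2 fold changes were -2.297 for Ntrk2, -1.059 for Id3 and 0.4876 for Ddit4. Their edgeR adjusted p values there were 0.0001425, 0.0008828 and 0.2517. The GF mean of Ddit4 was higher at 2 of those times and lower at 3.

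Among the 42 genes, those not yet described that rose in GF livers were Qdpr, which regenerates tetrahydrobiopterin (396.5 to 430.4 CPM against 251.0 to 281.9 CPM), Sucnr1, the succinate receptor gene (104.8 to 109.4 CPM against 63.4 to 81.7 CPM), Fam213a, Tmem256 and Ift57. Those that fell were Npr2, a natriuretic peptide receptor gene (26.2 to 35.5 CPM against 45.7 to 64.6 CPM), Inppl1, Cryl1, Pitpnm2, Tenm3, Pnisr, Bri3bp, Spsb4 and Gdap10. Spsb4 was the gene of the 42 not tested at the other times. Its GF means were lower at all 5 of them, without overlap. Igha counts over those 5 times summed to 21 in 15 GF and 594 in 15 SPF LKO libraries.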
